A study of Mus musculus with 9 samples.

Results

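The miRNA entries mmu-miR-709, mmu-miR-681, mmu-miR-706 and mmu-miR-1983 were examined in the hippocampus of mice that had received fine particulate matter (PM2.5) through the airways. These 4 of the 1247 mouse miRNAs on the array were chosen by measured values, because their signals were lower in the PM2.5 groups than in the control group. They were grouped as entries whose standing as miRNAs is in doubt, and their sequences and loci were examined for a tRNA or repeat origin. All 4 were among the 424 miRNAs (34% of the array) detected on every array of at least 1 group, which were the miRNAs tested. C57BL/6 males of approx 8 weeks received saline (control), PM2.5 at 1 mg/kg bw or PM2.5 at 5 mg/kg bw by oropharyngeal aspiration, in which a drop placed at the back of the throat is breathed in. The aspirations were given every other day for 4 weeks and the mice were killed 18 h after the last of them. Each group had 3 Agilent mouse miRNA arrays (version 19), 9 in all, with RNA of an individual mouse on each control array and each array at the higher dose, as a legend of the study describes them. For the lower dose the sources used here do not say whether an array held 1 mouse or several. The miRNAs that mark brain tissue (miR-124-3p, miR-9-5p, miR-128-3p and miR-138-5p) were detected on all 9 arrays, and the liver miRNA miR-122-5p on 0 of 9.

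A miRNA is a short RNA that the nucleases Drosha and Dicer cut from a hairpin-shaped precursor and that guides an Argonaute protein to messenger RNAs through its seed, bases 2 to 8. Entries that were registered early, from few sequenced clones, can instead be pieces of other RNAs. Transfer RNA (tRNA), which is processed by RNase P at its 5′ end and RNase Z at its 3′ end, is a common source of such pieces. Short interspersed elements (SINEs), of which B1 is the best known in the mouse, are another, since near-identical copies lie in a great many places of the genome and are transcribed within introns of other genes. An array probe of this type binds only the 3′ part of a mature miRNA, with a length chosen to balance the melting temperatures, so that a short probe can find its target in other RNAs as well.

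The mature sequences of 3 of the entries are held by RefSeq (GRCm38.p6 annotation) and are shown for their seeds, in capitals, since a miRNA family shares its seed.
mmu-miR-706: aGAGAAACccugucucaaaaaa
mmu-miR-681: cAGCCUCGcuggcaggcagcu
mmu-miR-1983: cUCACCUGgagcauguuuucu
All 3 are read from the minus strand, at chr6:120034290-120034311, chr12:69763923-69763943 and chr13:21896930-21896950. Among the 1017 array miRNAs with a mature sequence in RefSeq, no other had the seed of miR-706 or of miR-681, and the seed of miR-1983 was shared with 1 other, miR-412-3p. For miR-709 the sequences that its 2 probes detect are shown, because these short purine-rich runs are all that the array reads of it.
miR-709, 11-base probe target: aggcaggagga
miR-709, 12-base probe target: gaggcaggagga
The targets of the 12 probes of the 4 entries had 10 to 13 bases for miR-681 and 16 to 19 bases for miR-706, and 16 and 17 bases for miR-1983.

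The 4 entries lie on different chromosomes. Mir709 is at chr8:84086099-84086186, within the span of Rfx1 on GRCm38.p6, which encodes a transcription factor. Mir681 is at chr12:69763835-69763944, within the span of Cdkl1, which encodes a protein kinase. Mir706 is at chr6:120034228-120034311, within the span of Wnk1, which encodes a kinase that regulates ion transport. The table used gives gene spans only, so that exons and introns were not told apart. Mir1983 is at chr13:21896918-21897049 and lies in no protein-coding gene of the table.

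The locus of miR-1983 contained a whole tRNA gene. The gene n-TItat14, for an isoleucine tRNA, occupies chr13:21896938-21897031, and all 94 of its bases are within the 132 bases of the Mir1983 precursor. The precursor is shown, read on the minus strand, with the bases of the tRNA gene in capitals.
Mir1983 precursor: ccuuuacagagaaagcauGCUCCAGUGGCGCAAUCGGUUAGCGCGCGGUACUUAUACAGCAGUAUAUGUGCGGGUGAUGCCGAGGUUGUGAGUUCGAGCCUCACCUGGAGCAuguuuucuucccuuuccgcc
mature miR-1983: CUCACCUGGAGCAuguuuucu
miR-1983, 17-base probe target: CCUGGAGCAuguuuucu
Of the 21 bases of the mature entry, 13 are the last bases of the tRNA gene and 8 lie beyond its end. Of the 17 bases that the longer probe reads, 9 belong to the tRNA gene and 8 to the sequence beyond it, and of the 16 bases of the shorter probe 8 belong to each. This arrangement stood alone among the array miRNAs that could be checked. Of 677 miRNA genes, which cover 1018 array miRNAs, 1 overlapped any of the 430 tRNA genes, and that was Mir1983. Within 50 kb of it there were 21 tRNA genes. The other entries were far from tRNA genes, with the nearest at 1205176 bases from Mir681, 10617445 bases from Mir709 and 33630265 bases from Mir706, and 0 within 50 kb.

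The sequence of miR-706 recurred in the genome. No whole genome was searched, and copies were sought instead in 32817 promoter windows of RefSeq, each of 300 bases around a gene's start, on both strands. The mature 22-base sequence of miR-706 was found unchanged in 2 windows (0.0061%), and in 22 windows when 1 mismatch was allowed. Of the 1017 mature sequences of array miRNAs, 983 were in 0 windows, and miR-706 ranked 4th. The 3 above it were miR-3473b, in 32 windows, miR-3471, in 11, and miR-3473a, in 9. The target of the 19-base probe of miR-706 was in 2 windows unchanged and in 25 with at most 1 mismatch. None of 274 other targets of 19 bases reached 25, their median was 0, and the next was miR-1194 with 15.

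The places that resembled miR-706 also resembled each other beyond it. Both exact copies that had 25 bases on each side within the window are shown with the 19-base target in capitals, the first near Gm41247 and on the plus strand, the second near Gm32820 and on the minus strand.
chr14:118697775-118697843: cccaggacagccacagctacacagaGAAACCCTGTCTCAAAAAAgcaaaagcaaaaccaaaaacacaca
chr9:58463800-58463868: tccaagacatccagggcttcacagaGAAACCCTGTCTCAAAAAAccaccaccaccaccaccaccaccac
Among 18 places with at most 1 mismatch, the 50 flanking bases of a pair of places were identical in 60.8% of positions on average. Of the 16 places with exactly 1 mismatch, 10 (62.5%) had the same one, A14G, counted from the 5′ end of the target. The flanks of these 10 were 76.1% identical on average and 98% in the most alike pair. The shared form is shown with the changed base in capitals.
commonest relative of the miR-706 target: gaaaccctgtctcGaaaaa
A run of this kind before a stretch of A is, as background, the 3′ end of B1 elements.

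Matches of miR-706 are not compared with those of miR-709, whose targets are shorter, at 11 and 12 bases. Its 11-base target was in 54 windows (0.165%), where 75 other targets of this length had a median of 11 and 6 of them had at least as many. Its 12-base target was in 32 windows (0.0975%), where 146 others had a median of 2 and 1 of them had at least as many. The flanks of 22 exact places were 27.2% identical on average. Over 131 other targets of up to 13 bases with at least 5 places, this average ran from 23% to 54.4%. Its median was 28.2%, so that the surroundings of the miR-709 matches were no more alike than is usual here. With 1 mismatch there were 377 places and all 36 possible variants occurred. The commonest, C5G, made up 14.9% of them, and its flanks were 31.7% identical. The next, G11T, was at 23 places whose flanks were 86.0% identical.

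The targets of miR-681 were in more windows than the median of other targets of their lengths, by little for the shortest. The 10-base target was in 78 windows, where 36 others had a median of 56 and 14 of them had at least as many. The 11-base target was in 30 windows, where 75 others had a median of 11 and 8 of them had at least as many. The 13-base target was in 9 windows, where 258 others had a median of 0.5 and 7 of them had at least as many, and the flanks of its 6 places with full flanks were 24.7% identical. The mature sequence was in 0 windows. Neither probe target of miR-1983 nor its mature sequence was in any window, also with 1 mismatch. Runs of at least 10 bases in common with another array miRNA were rare. A run of 10 was shared by miR-681 and miR-3098-3p, on opposite strands, and by miR-1983 and miR-804, on the same strand.

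**Figure D1:**
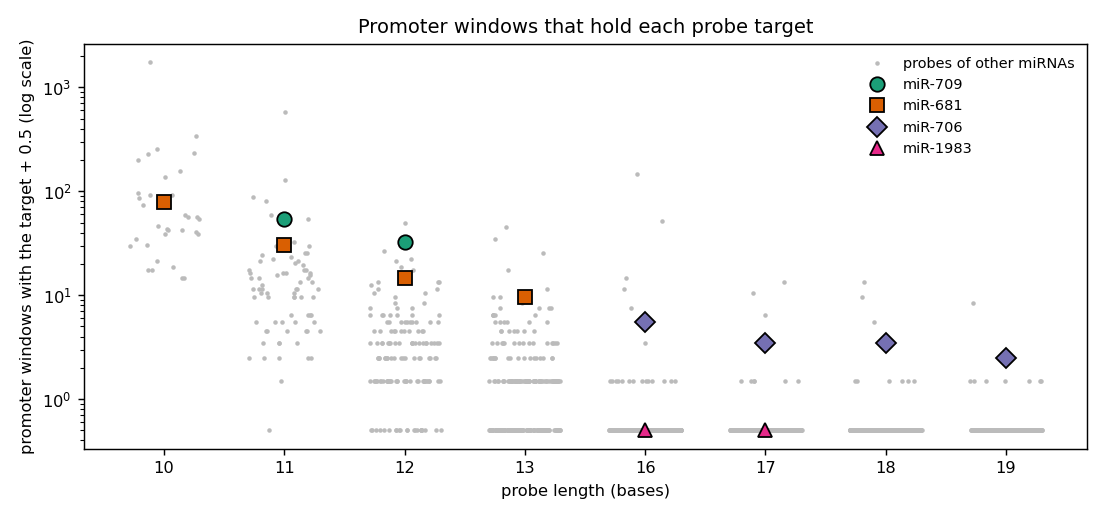
Number of the 32817 promoter windows that hold each probe target, plus 0.5 on a log scale, against probe length in bases, with grey points for probes of other miRNAs and large symbols for the 12 probes of the 4 entries. The miR-709 and miR-706 symbols sit above most grey points of their lengths, and both miR-1983 symbols are at 0 windows.

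The probes differed in what they measured. No spot was saturated, and the signals below are means of the spots of a probe in Feature Extraction units, after subtraction of background and without scaling between arrays. For miR-709, both probes were measured on every array, each printed 20 times, with 16 to 20 spots per array well above background. The 12-base probe gave 1609, 1691 and 1448 units on the control arrays, 1189, 1369 and 1298 at 1 mg/kg bw, and 1178, 1350 and 1317 at 5 mg/kg bw. The 11-base probe gave 272, 280 and 221 units in controls, 204, 233 and 217 at 1 mg/kg bw, and 204, 227 and 238 at 5 mg/kg bw. The control arrays were the high ones for the 12-base probe, with no overlap with either PM2.5 group, whereas for the 11-base probe the third control lay among the PM2.5 arrays before scaling. After scaling, both probes of miR-709 were lower on all 6 PM2.5 arrays than on the control arrays. The 11-base probe differed from control by -0.34 and -0.32 on the log2 scale at 1 and 5 mg/kg bw, and the 12-base probe by -0.41 and -0.42. The ratio of the longer to the shorter probe was 5.53 to 6.55 over the 9 arrays, and the deviations of the 2 probes from their group means had a Pearson r of 0.80 over 9 arrays that both probes share.

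For miR-1983 only the 17-base probe was measured, with 19 or 20 of its 20 spots well above background on each array. It gave 25.7, 25.8 and 23.2 units in controls, 21.8, 21.2 and 20.5 at 1 mg/kg bw, and 22.4, 21.1 and 22.6 at 5 mg/kg bw. All 6 PM2.5 arrays were below the lowest control array even before scaling. The 16-base probe had 2.58 to 3.88 units and no spot well above background, and it made up 10.5% to 15.7% of the summed signal.

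For miR-706 only the 19-base probe was measured, with 9 or 10 of its 10 spots well above background. It gave 28.9, 28.4 and 25.2 units in controls, 22.3, 25.1 and 23.0 at 1 mg/kg bw, and 23.3, 23.4 and 24.2 at 5 mg/kg bw, so that here too no PM2.5 array reached a control array. The margin was narrow before scaling. The closest arrays, at 25.2 units in a control and 25.1 at 1 mg/kg bw, differed by less than the standard errors over their spots, 0.51 and 1.04 units. The probes of 16, 17 and 18 bases had at most 1.30, 2.80 and 7.70 units, and none of their spots was well above background.

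For miR-681 none of the 4 probes was steadily above background. The 11-base probe carried 56.0% to 78.6% of the summed signal, with 9.24, 9.13 and 9.46 units in controls, 8.37, 6.34 and 6.94 at 1 mg/kg bw, and 6.94, 8.22 and 8.0 at 5 mg/kg bw. At most 1 of its 10 spots per array was well above background, and its spots had a median SD of 1.99 units within an array. After scaling, the 11-base probe was below all controls on each array at 5 mg/kg bw but not at 1 mg/kg bw. The probes of 10, 12 and 13 bases had -1.75 to 4.14 units and no spot well above background. In the 1 mg/kg bw group no spot of any miR-681 probe was well above background, so that its values there stand for a bound only. Differences of miR-681 are listed below only among the alternatives of the processing, and nothing is read from them. Feature Extraction called miR-681 detected on 3 of 3 control arrays, 1 of 3 at 1 mg/kg bw and 1 of 3 at 5 mg/kg bw. Because it was detected in every control, it passed the filter through the group in which it was highest. The other 3 entries were detected on all 9 arrays.

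**Figure D2:**
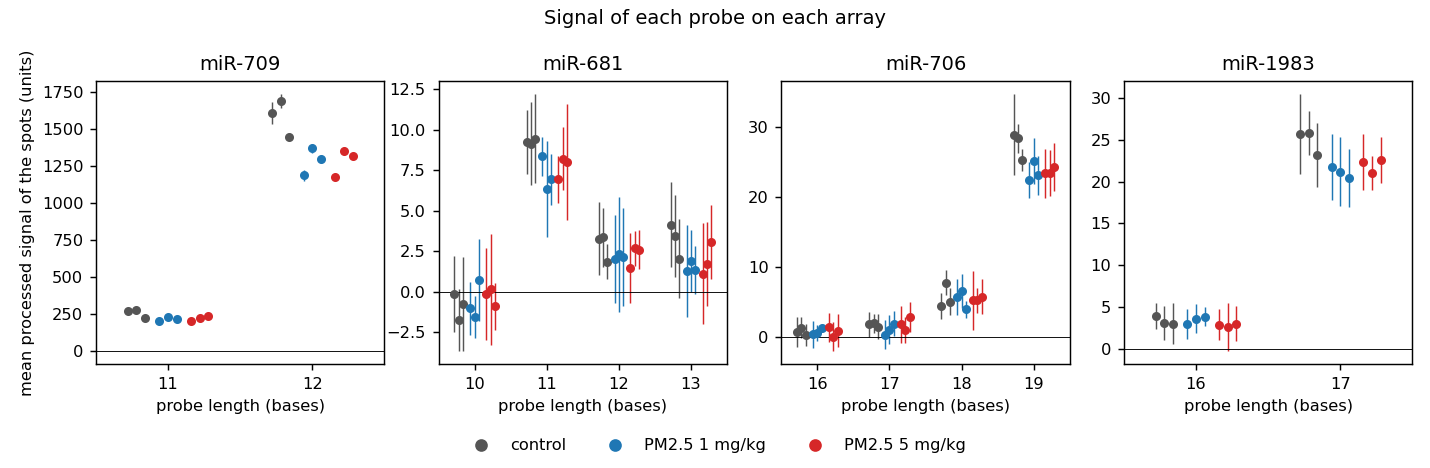
Mean processed signal in units of each probe of miR-709, miR-681, miR-706 and miR-1983 on each of the 9 arrays, by probe length in bases, with bars for the SD over the spots of the array. The 12-base probe of miR-709, the 19-base probe of miR-706 and the 17-base probe of miR-1983 carry most of each sum, and the miR-681 probes reach at most 9.46 units.

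The probes of an entry were summed, divided by the 75th percentile of the miRNAs detected on all arrays, and put on the log2 scale. On this scale miR-709 was at 1.79, 1.83 and 1.76 in controls, 1.46, 1.42 and 1.31 at 1 mg/kg bw, and 1.32, 1.51 and 1.34 at 5 mg/kg bw. Every control array was above every PM2.5 array, and the 2 doses overlapped. The group means were 1.80 ± 0.03, 1.40 ± 0.08 and 1.39 ± 0.10 (SD, n = 3 each), which is a difference from control of -0.40 (SE 0.08) at each dose. The level at 1 mg/kg bw was thus 0.758 times, and that at 5 mg/kg bw 0.756 times, the control level. These differences chose the entry and are given as a description.

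For miR-706 the log2 levels were -3.93, -3.82 and -3.95 in controls, -4.15, -4.18 and -4.35 at 1 mg/kg bw, and -4.13, -4.23 and -4.19 at 5 mg/kg bw. Its PM2.5 arrays lay below the controls at both doses and overlapped each other. The means were -3.90 ± 0.07, -4.23 ± 0.11 and -4.18 ± 0.05 (SD, n = 3 each), with differences from control of -0.33 (SE 0.08) and -0.28 (SE 0.08).

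For miR-1983 the log2 levels were -4.20, -4.26 and -4.23 in controls, -4.36, -4.59 and -4.66 at 1 mg/kg bw, and -4.45, -4.55 and -4.59 at 5 mg/kg bw. The same separation from the controls was seen, with the first array at 1 mg/kg bw closest to them. The means were -4.23 ± 0.03, -4.54 ± 0.16 and -4.53 ± 0.07 (SD, n = 3 each), with differences from control of -0.31 (SE 0.09) and -0.30 (SE 0.09).

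For miR-681 the log2 levels were -5.04, -5.29 and -5.29 in controls, -5.57, -6.06 and -5.77 at 1 mg/kg bw, and -5.88, -5.44 and -5.59 at 5 mg/kg bw. The controls were again highest, but the PM2.5 arrays were spread over a wider range than those of the other entries. The means were -5.20 ± 0.15, -5.80 ± 0.24 and -5.64 ± 0.22 (SD, n = 3 each), all from signals near the background.

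**Figure D3:**
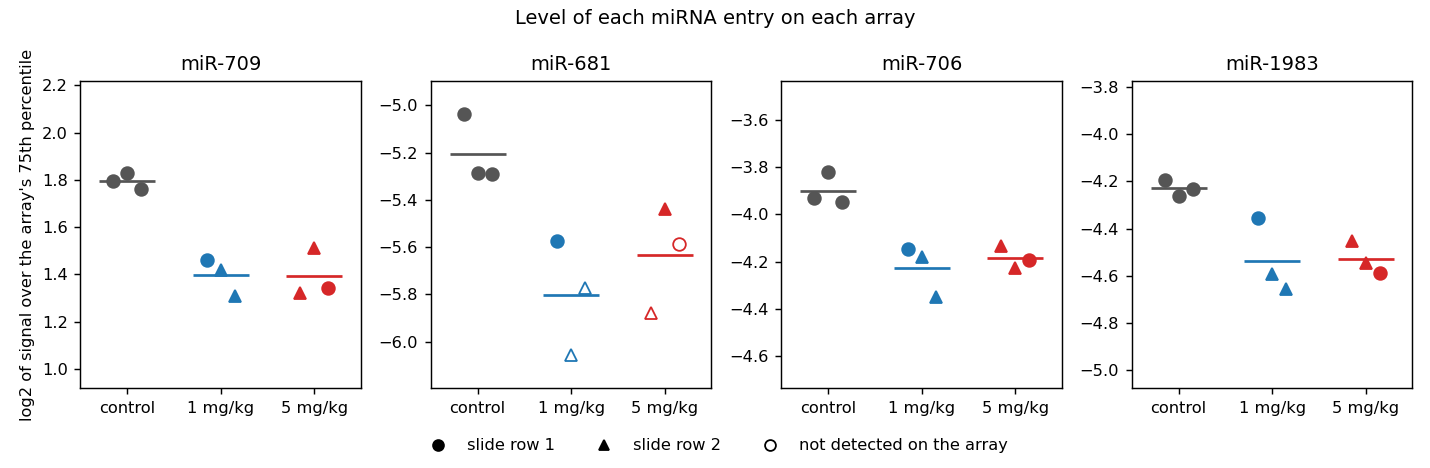
Log2 of the summed signal over the array's 75th percentile for each entry on each array, by group, with circles for slide row 1, triangles for slide row 2, open symbols where the entry was not detected and lines for group means. In each panel the 3 control arrays sit above the 6 PM2.5 arrays, from -5.04 to -6.06 for miR-681.

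For miR-709, miR-706 and miR-1983, every PM2.5 array was thus below every control array at both doses. The values of miR-681 had the same order, but they lay near the background and it passed the filter through the controls, so that nothing is read from it. Among the 424 tested miRNAs this held for 7.55% at the lower dose, for 9.43% at the higher and for 4.25% at both, and since the entries were chosen on these differences nothing is read from their count. Both doses share the same control arrays. The median difference from control over all tested miRNAs was -0.03 at the lower and -0.0035 at the higher dose, so that the entries lay below the bulk of the array on this scale. Without scaling between arrays the median of all tested miRNAs was 0.078 and 0.11, and miR-709 was still at -0.29 at both doses. The direction of miR-706 and miR-1983 depended on the summary of the probes. With the total signal per miRNA that Feature Extraction writes, the difference of miR-706 was 0.14 and 0.17, and that of miR-1983 -0.03 and 0.04.

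That total signal held more than the probes. For miR-709 it equalled the sum of the total signals of its 2 probes on all 9 arrays, with a remainder of at most 0.0008 units. For miR-706, 80.2% to 86.6% of it was not in the probe sum, and for miR-1983 57.4% to 64.4%. Both have dim probes without a spot well above background, 3 for miR-706 and 1 for miR-1983 on each array. For miR-681 the total was 60.3 to 80.3 units on the 5 arrays on which it was called detected and 0.944 to 1.06 units on the 4 others, whereas the sum of its probes' totals was 1.64 to 3.01 units throughout. What Feature Extraction adds for the dim probes was not tested.

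The markers of other cell types in the dissected tissue moved with the groups in part. The summed level of the 4 brain miRNAs, in multiples of the array's 75th percentile, was 141.1 to 162 in controls, 120.2 to 141.1 at 1 mg/kg bw and 134 to 156 at 5 mg/kg bw. The 3 choroid plexus miRNAs (miR-204-5p, miR-211-5p, miR-448-3p), of which 2 were detected on every array, summed to 3.07 to 4.88, 5.36 to 8.74 and 2.84 to 5.56. They were thus higher on each array at 1 mg/kg bw than in any control, and overlapped the controls at 5 mg/kg bw. The oligodendrocyte list had 2 of its 3 names on the array and ran from 3.63 to 5.24, 4.47 to 5.53 and 2.57 to 5.87. The blood list, with 2 of 3 on the array, ran from 2.90 to 3.69, 2.98 to 3.51 and 3.77 to 4.08. It was thus higher on each array at 5 mg/kg bw than in any control, and overlapped the controls at 1 mg/kg bw. The muscle list of 2 ran from 0.134 to 0.24, 0.18 to 0.231 and 0.126 to 0.266, with miR-206-3p detected on 0 arrays. Their part in the levels of the entries was not tested. In such tissue RNA, fewer cells of a type and less RNA per cell cannot be told apart.

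The difference between the doses is also given as a description, because both dose groups entered the choice of the entries, and a choice of entries that were low at both doses favours a small difference between them. At 5 mg/kg bw minus 1 mg/kg bw, miR-709 differed by -0.0036 (95% interval in limma -0.18 to 0.17), miR-706 by 0.04 (-0.13 to 0.22) and miR-1983 by 0.0075 (-0.19 to 0.21). These intervals leave room for differences of up to 0.22 on the log2 scale.

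The groups were not evenly placed on the slides. All 3 control arrays and the first array at 1 mg/kg bw were in row 1 of the first slide, the other 2 at 1 mg/kg bw and 2 of those at 5 mg/kg bw were in its row 2, and the third at 5 mg/kg bw was on a second slide, in row 1. Control and row 2 therefore never met. At 5 mg/kg bw the array in row 1 was also the one on the second slide, so that row and slide cannot be told apart at that dose. In a model with group and row, row 2 minus row 1 was -0.0096 for miR-709 (95% interval -0.21 to 0.19, adjusted p = 0.965), -0.05 for miR-706 (-0.25 to 0.14, adjusted p = 0.787), and -0.09 for miR-1983 (-0.31 to 0.13, adjusted p = 0.728), all in limma over the 424 tested miRNAs. Over all tested miRNAs 0 passed at an adjusted p under 0.05 (0%) and 25 (5.9%) had an unadjusted p under 0.05. With slide added to the model, row 2 minus row 1 was -0.095 for miR-709, -0.12 for miR-706 and -0.27 for miR-1983. These values rest on the 1 array at 1 mg/kg bw in row 1, set against the other 2 of that dose in row 2. A part of the row in the differences from control is thus not settled by this layout.

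**Figure D4:**
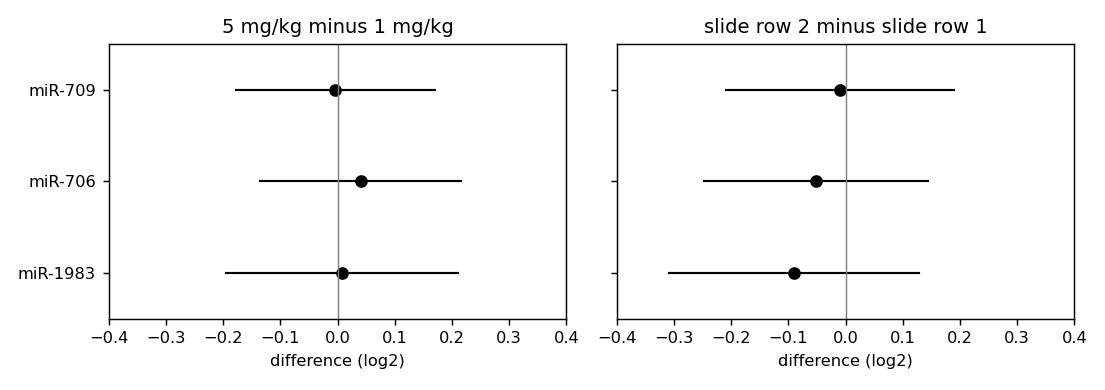
Differences in log2 signal of the 3 entries detected on all arrays, miR-709, miR-706 and miR-1983, with their 95% intervals from limma, between the doses on the left and between slide rows on the right. All intervals include 0, and they reach from -0.31 for miR-1983 between rows to 0.22 for miR-706 between doses.

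Within row 1 of the first slide, the single array at 1 mg/kg bw could be set beside the 3 controls. It was below each of them for all 4 entries, by -0.34 from the control mean for miR-709, -0.25 for miR-706 and -0.13 for miR-1983. The entries were chosen for low PM2.5 values and every PM2.5 array lay below every control. That order was therefore settled beforehand, and only the sizes are described. The 2 arrays of that dose in row 2 were lower still on average, by -0.43, -0.36 and -0.40 for these 3. The row 1 array of miR-1983 was thus the closest of its PM2.5 arrays to the controls. At 5 mg/kg bw, the array in row 1 of the second slide differed from the controls by -0.45, -0.29 and -0.36 for miR-709, miR-706 and miR-1983, and the 2 in row 2 of the first slide by -0.38, -0.28 and -0.27. With row as a term in the model, the differences from control were -0.39 and -0.40 for miR-709, -0.29 and -0.25 for miR-706, and -0.25 and -0.24 for miR-1983, at 1 and 5 mg/kg bw. No control array was in row 2, so that these rest on the row difference among the PM2.5 arrays.

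Within groups the entries were not found to move together. Over the deviations of the 9 arrays from their group means, the 6 pairs had a Pearson r from -0.27 (miR-681 with miR-706) to 0.58 (miR-706 with miR-1983). The r of miR-709 was 0.45 with miR-681, 0.34 with miR-706 and 0.31 with miR-1983, and that of miR-681 with miR-1983 was 0.28. The r of miR-681 with miR-706 went from -0.27 to -0.73 without the first array at 1 mg/kg bw and to -0.098 without the first at 5 mg/kg bw, and the signals of miR-681 were near the background. Spearman's rho ran from -0.07 to 0.45. In two-sided exact permutation tests over all arrangements within groups, whose smallest p is 0.0046, the raw p ran from 0.338 to 0.685 for r and from 0.366 to 0.903 for rho. After adjustment over the 6 pairs, p was 0.685 for every r, and 0.661 to 0.903 for rho. The pairs with miR-681 entered this adjustment, but nothing is read from them, since its signals were near the background. Before adjustment, the permutation p for r was 0.431 for miR-709 with miR-706, 0.472 for miR-709 with miR-1983 and 0.338 for miR-706 with miR-1983. Without the 2 arrays farthest from the median the r of the 6 pairs ran from 0.09 to 0.57.

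**Figure D5:**
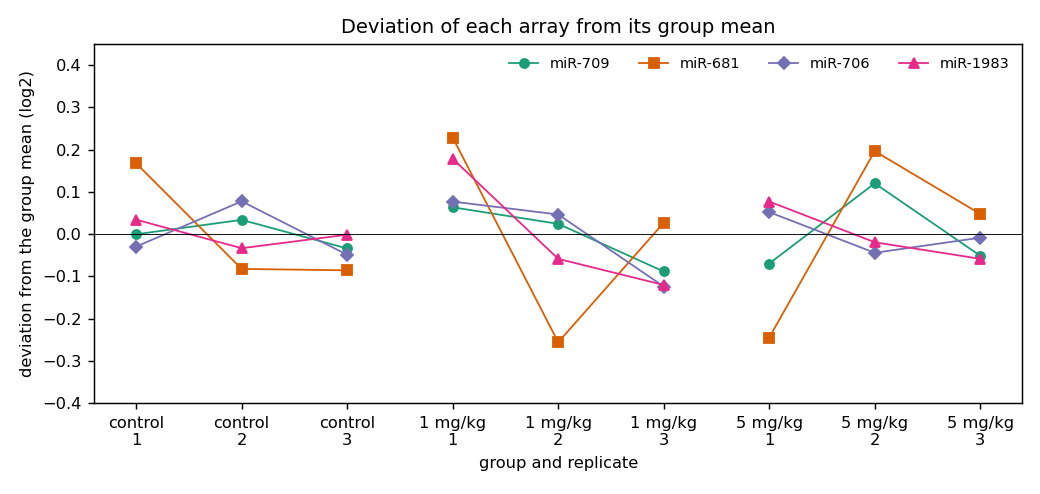
Deviation of each array's log2 level from its group mean, by group and replicate, with a line for each entry within a group. The first array at 1 mg/kg bw is above its group mean for all 4 entries, by 0.06 to 0.23.

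The miRNAs detected on all 9 arrays whose deviations were most like those of each entry were found by the highest Pearson r among 394 or 395 candidates, as a description over 9 arrays that share their scaling. For miR-709 they were miR-450a-2-3p (0.80), miR-5107-5p (0.75) and miR-152-3p (0.69). For miR-706 they were miR-872-3p (0.87), miR-134-5p (0.82) and the leukocyte miRNA miR-142-3p (0.79). For miR-1983 they were miR-29b-3p (0.94), miR-125a-3p (0.92) and miR-337-5p (0.91). For miR-681 they were miR-3102-5p (0.83), miR-5119 (0.82) and miR-6418-5p (0.82).

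The neighbours of the entries in name and in sequence were compared with them. The array had 43 entries numbered from miR-680 to miR-721, a range that was registered together and that holds 3 of the 4. Besides these 3, 7 were tested and 6 were detected on all 9 arrays. Of the 7, 4 were below control and 3 above it at each dose, with a median difference of -0.15 at the lower and -0.02 at the higher dose. Of all tested miRNAs 60.1% and 51.2% were below control. By limma 0 of the 7 passed at an adjusted p under 0.05 at either dose (0.236% and 0% of all tested), and 1 and 2 had an unadjusted p under 0.05 (7.78% and 9.43% of all tested). The differences were -0.19 and -0.02 for miR-690, 0.03 and 0.03 for miR-705, -0.27 and -0.24 for miR-697, -0.15 and -0.12 for miR-712-5p, 0.08 and 0.13 for miR-700-3p, and 0.01 and 0.39 for miR-708-5p.

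A total of 21 array miRNAs, miR-709 among them, had every probe target in 10 or more promoter windows. Of the other 20, 14 were tested, and 10 were below and 4 above control at 1 mg/kg bw, with a median of -0.12, and 9 below and 5 above at 5 mg/kg bw, with a median of -0.08, beside the 60.1% and 51.2% of all tested that were below. By limma 0 of the 14 passed at an adjusted p under 0.05, and 5 and 3 had an unadjusted p under 0.05, where the share over all tested was 7.78% and 9.43%. All PM2.5 arrays lay below all control arrays for 2 of the 14 at the lower and for 4 at the higher dose, against 7.55% and 9.43% of all tested. The 6 with the highest mean signal were miR-3473b, at -0.43 and -0.31, miR-1224-5p, at -0.11 and -0.05, miR-5126, at 0.07 and 0.12, miR-5105, at -0.13 and -0.05, miR-3960, at 0.07 and 0.13, and miR-466i-5p, at -0.24 and -0.27. Of these, miR-3473b, whose mature sequence is the one found in the most promoter windows, had differences from control of about the size of those of miR-709, on arrays that share the controls, and its row 2 minus row 1 difference was -0.33.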

How the data were processed

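The authors hybridised total RNA to Agilent arrays and extracted them with Agilent Feature Extraction 10.7, per the labels. The deposited files hold intensity values of 49880 miRNA spots per array, not scaled between arrays. The authors also deposited a table of log2 values, whose normalization is not given in the sources used here and which served as an alternative. The members and lists were chosen with earlier results of these data known. For each probe, processed signals of spots without an outlier flag were averaged (51 of 1440 member spots were left out), probes were summed per miRNA, divided by the array's 75th percentile (492 to 614 units, taken over the 395 that all 9 arrays detected), raised to at least the lowest detected signal, and put on the log2 scale. Arrays detected 410 to 436 miRNAs, and their number limits the precision. The 424 tested were those that some group detected on each of its arrays, and they were fitted with limma 3.58.1 in R 4.3.3, with the 3 groups, or groups and slide row, and Benjamini-Hochberg adjustment. The fit was tested on simulated data. Contrasts with control chose the members and are described without a test, as is the difference between the doses. For miR-681, which lay near background, fitted differences are listed only among the alternatives, and nothing is read from them. Named miRNAs were the members, the 3 most alike by within-group deviations, those sharing a run of 10 bases, and the brightest detected ones (at most 6) of each list. Of the array miRNAs, 1017 matched a RefSeq mature sequence and none was found there for miR-709. Searches used RefSeq sequences and gene spans of GRCm38.p6, with Python 3.11.15, since no genome was used here. Positions that the array files give for probes were not used, because for minus-strand miRNAs they are mirrored within the precursor: 1 of 499 such probes lay in its mature sequence as written, and 499 of 499 after mirroring, to within 1 base.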

Additional observations from a re-analysis of the deposited data

How the results depend on the processing

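Alternatives were the files' own total signal, background correction by normexp with an offset of 50, averaging the probes, 4 scalings, 2 filters, the deposited log2 table, the 2 groups alone, slide, slide row and replicate blocks, and each array left out. Keeping outlier spots and using the brightest probe alone were chosen after seeing the data. Against control, miR-709 was below 0 in 25 of 25 alternatives at each dose, from -0.43 to -0.26 at 1 mg/kg bw and from -0.46 to -0.25 at 5 mg/kg bw, and miR-681 in 24 of 24, miR-706 in 24 of 25 at each dose, and miR-1983 in 25 and 24 of 25. With each array left out, these differences stayed below 0 for all 4 entries. No other outcome was possible there, since every PM2.5 array lay below every control array. The same contrasts chose the entries, so that the counts describe the processing only. Values at 1 and 5 mg/kg bw that moved were as follows. The total signal gave -0.26 and -0.25 for miR-709, -2.85 and -2.99 for miR-681, 0.14 and 0.17 for miR-706, and -0.032 and 0.043 for miR-1983. Normexp gave -0.10 and -0.099 for miR-681, -0.11 and -0.11 for miR-706, and -0.11 and -0.11 for miR-1983. No scaling gave -0.29 and -0.29 for miR-709, -0.22 and -0.17 for miR-706, and -0.20 and -0.18 for miR-1983. The deposited table gave -1.01 and -1.27 for miR-681, -0.84 and -0.56 for miR-706, and at 5 mg/kg bw -0.20 for miR-1983, where quantile normalization also gave -0.20. For miR-681, keeping outlier spots gave -0.90 and -0.75, and the brightest probe alone -0.28 at 1 mg/kg bw. The causes were not tested, and the values of miR-681, here and below, come from signals near the background, so that nothing is read from them.

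Between the rows no alternative passed (the lowest adjusted p in limma was 0.589 for miR-1983, 0.693 for miR-706 and 0.740 for miR-709). Between the doses and between the rows, values near 0 changed sign. Between the doses miR-709 was at 0.014 with the total signal, 0.0028 with the mean over probes, 0.00097 without scaling and 0.022 with the slide block, miR-681 at -0.14 with the total signal, -0.25 in the deposited table and -0.045 with the brightest probe, miR-706 at -0.0053 with the brightest probe, and miR-1983 at -0.0049 with normexp, -0.019 with a 75th percentile over the whole array and -0.0030 with outlier spots kept. With each array left out the ranges were -0.064 to 0.031 for miR-709, -0.021 to 0.079 for miR-706, -0.053 to 0.097 for miR-1983 and 0.039 to 0.29 for miR-681. Between the rows miR-709 was at 0.0032 with the total signal, 0.043 without scaling, 0.0054 with the percentile over the whole array, 0.021 with quantile normalization and 0.011 in the deposited values, and miR-706 at 0.0012 without scaling. With each array left out the ranges were -0.095 to 0.076 for miR-709, -0.12 to 0.012 for miR-706, -0.27 to 0.087 for miR-1983, where the highest is without the first array at 1 mg/kg bw, and -0.34 to -0.072 for miR-681.

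The r between the dim entries depended on the background correction. With normexp r was 0.98 for miR-681 and miR-706, 0.99 for miR-681 and miR-1983, and 0.99 for miR-706 and miR-1983, each at an adjusted p of 0.0093 by the exact permutation test. Normexp adds the same offset to every probe. That offset is larger than the summed signal that miR-681, miR-706 or miR-1983 had on any array in the main processing. Their levels were then mostly the offset divided by the array's own scaling value, which all entries share, and this alone makes r high. These r values and their p therefore cannot tell whether the entries move together, and nothing is read from them. With quantile normalization r was -0.13 for miR-709 and miR-681 and -0.091 for miR-681 and miR-1983, and in the deposited values it was 0.45 for miR-681 and miR-706. With each array left out r ran from -0.19 to 0.91 for miR-709 and miR-706, from -0.11 to 0.60 for miR-709 and miR-1983, and from -0.51 to 0.67 for miR-681 and miR-1983, each of these lowest values being without a single array at 1 mg/kg bw, the third for the first pair and the first for the other two. It ran from 0.16 to 0.70 for miR-709 and miR-681, from -0.73 to -0.098 for miR-681 and miR-706, and from 0.23 to 0.77 for miR-706 and miR-1983. With at most 1 mismatch the longest targets were in 494 windows for miR-709, 76 for miR-681 and 25 for miR-706. All 32817 windows lie on placed chromosomes, so that leaving out other sequences changed no count.

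The sources used here do not say whether the replicate numbers pair the arrays. Deviations of arrays with the same number correlated from -0.65 to 0.74 over 424 miRNAs, and with a replicate block miR-709 was still at -0.40 from control at both doses. The block changed no call.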
